A study of Mus musculus with 24 samples.

Results

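The genes described here are 4 imprinted noncoding RNAs (Kcnq1ot1, Nespas, Airn and H19), 2 imprinted protein genes that lie beside or across such RNAs (Gnas and Igf2r) and 2 genes whose proteins keep imprints (Zfp57 and Trim28). They were picked by symbol through the Ensembl gene ID, which gave 8 of the 29759 genes in the expression tables. The libraries came from E14 mouse embryonic stem cells, which are 1 cell line. Epiblast-like cells (EpiLC) had been kept for 3 days in N2B27 medium with bFGF at 12 ng/ml and activin A at 20 ng/ml, and the naive cells (nESC) from which they were made were kept in N2B27 with LIF, the MEK inhibitor PD0325901 and the GSK3 inhibitor CHIR99021. The labels name no genetic change in either state. Cells of each state were split into chromatin, nucleoplasm and cytoplasm, and these fractions and whole cells (total) were sequenced after ribosomal RNA depletion, with 3 libraries for each of the 8 groups and 24 in all. The labels do not say whether the replicates are separate cultures, so each p-value reflects the spread among the libraries alone, and that spread may be technical.

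An imprinted gene is transcribed mainly from the copy inherited from 1 parent. Many imprinted clusters have a control region that carries DNA methylation on 1 parental copy, and on the other copy this region often drives a long noncoding RNA that keeps neighbouring genes silent in cis. Kcnq1ot1, Nespas and Airn are such RNAs of the paternal copy, whereas H19 is a spliced RNA of the maternal copy, abundant in the embryo and its membranes. Zfp57 encodes a zinc finger protein that binds the hexamer TGCCGC when it is methylated, and Trim28 encodes the corepressor it recruits. Expression here is the sum over both parental copies, so no value below speaks of imprinting itself.

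Expression was given in FPKM, fragments scaled by exon length and by a factor for each library. This scale allows levels of different genes to be compared per length. It is relative within a library and holds no measure of the RNA amount in each fraction. A higher FPKM in a fraction is therefore not the share of a gene's RNA found there. How the library factor was set is not given in the sources used here. Each cell state has its own table, and the 2 tables were normalized separately. Tests therefore compare fractions inside a state, and EpiLC and nESC levels are given next to each other untested. By the steps between low FPKM values, 1 FPKM in a 2 kb transcript stands for 24.2 to 93.7 fragments, with the least in the cytoplasm libraries of nESC. FPKM sums ran from 432706 in a chromatin library to 1980223 in a cytoplasm library. Marker genes followed the labels. In total RNA the formative gene Fgf5 had a mean of 54.2 FPKM in EpiLC and 0.0553 in nESC, and the naive gene Nanog had 14.2 in EpiLC and 277 in nESC. Among fractions the nuclear RNA Malat1 was at 4545 FPKM in chromatin and 221 in cytoplasm of EpiLC, and at 4864 FPKM in chromatin and 173 in cytoplasm of nESC.

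RefSeq (GRCm38.p6) gave promoter windows, from 250 bases before to 50 after the start, for 6 of the 8 genes, and none for Nespas and H19. The windows of Kcnq1ot1 and Airn are shown because both RNAs start in an imprint control region, and one RNA was readily measured here whereas the other stayed near 0. The Kcnq1ot1 window is chr7:143296498-143296797 on the minus strand and the Airn window is chr17:12741061-12741360 on the plus strand, 5′ to 3′, with capitals for CCAAT or its complement ATTGG.
Kcnq1ot1: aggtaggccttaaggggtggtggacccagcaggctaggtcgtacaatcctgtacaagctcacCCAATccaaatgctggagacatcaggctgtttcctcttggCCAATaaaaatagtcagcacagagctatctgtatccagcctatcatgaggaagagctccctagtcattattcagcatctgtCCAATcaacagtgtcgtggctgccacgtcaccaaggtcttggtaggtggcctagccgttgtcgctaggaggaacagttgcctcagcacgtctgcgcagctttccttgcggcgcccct
Airn: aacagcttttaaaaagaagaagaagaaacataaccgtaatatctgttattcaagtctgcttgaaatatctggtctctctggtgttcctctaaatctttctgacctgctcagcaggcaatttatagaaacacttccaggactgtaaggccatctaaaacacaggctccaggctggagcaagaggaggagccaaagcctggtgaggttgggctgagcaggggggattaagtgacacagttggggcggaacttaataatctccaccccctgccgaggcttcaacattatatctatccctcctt
The Kcnq1ot1 window held 3 CCAAT motifs, all on the strand that reads as the RNA and none overlapping another, and the Airn window held 0. Of 32851 windows of this length, 37.4% held at least 1 CCAAT on either strand and 3.37% held at least 3. CG dinucleotides numbered 9 in the Kcnq1ot1 window and 3 in the Airn window, against a median of 7 over all windows. Neither window held TGCCGC or its complement GCGGCA, which 11.6% of all windows held, while that of Trim28 held 1.

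The hexamer was present just inside Kcnq1ot1. GENCODE M21 transcripts on GRCm38 placed 5 copies in the 93092 bases of Kcnq1ot1, and 3 of them lay within its first 2000 bases, starting at bases 804, 841 and 876 of the RNA. Those 3 sites are shown with their flanks, read along the RNA from 5′ to 3′, with the hexamer in capitals. They lie at chr7:143295729-143295758, chr7:143295692-143295721 and chr7:143295657-143295686 on the minus strand.
Kcnq1ot1 site at base 804: ctccccctcctcGCGGCAagcactcacggc
Kcnq1ot1 site at base 841: agaggtgattcgTGCCGCgctttcgcggct
Kcnq1ot1 site at base 876: ccatcttcgtttTGCCGCagtggctccgta
Among 19565 genes whose longest transcript reaches 2000 bases, 6.09% held at least 3 copies in the first 2000. The same stretch held 5 copies in Gnas, 4 in Trim28 and 2 in Igf2r, so the count in Kcnq1ot1 is not the highest among these genes. Airn held 1 copy in its longest annotated transcript of 1375 bases, and Nespas, H19 and Zfp57 held 0. These matches are letters in a sequence and say nothing of binding in these cells.

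**Figure D1:**
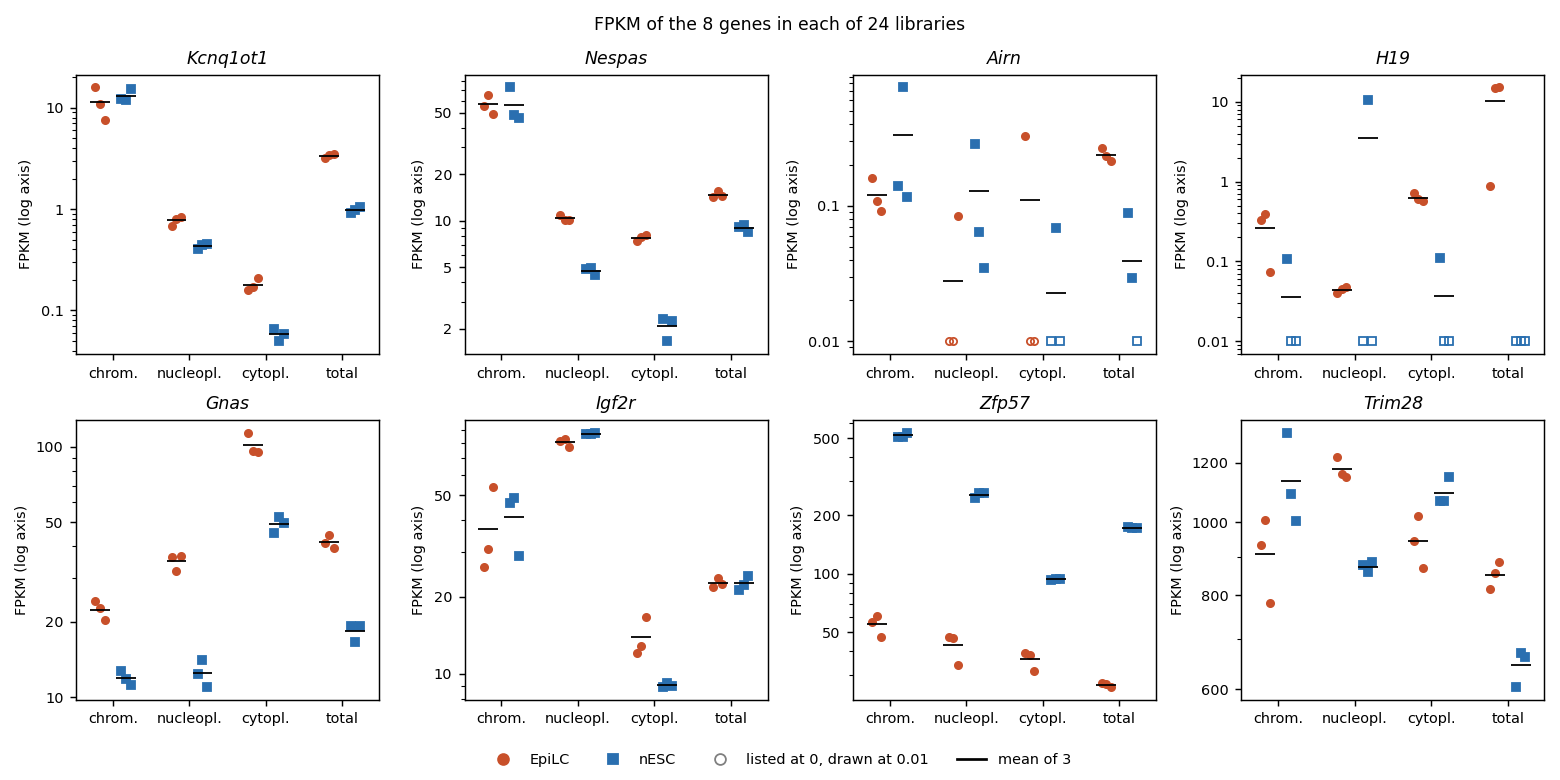
FPKM of each gene (log axis, own scale per panel) in the 4 kinds of RNA, with 1 point per library, EpiLC left of nESC, a bar at the mean of 3 libraries and open symbols for values listed at 0. Kcnq1ot1 and Nespas are highest in chromatin, Gnas in cytoplasm and Igf2r in nucleoplasm in both states, Zfp57 lies higher in nESC in every kind of RNA, and H19 stands out in 3 libraries.

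Kcnq1ot1, the RNA that silences genes of the Cdkn1c and Phlda2 cluster, had its highest FPKM in chromatin in both states. It is annotated as 1 unspliced exon of 93092 bases, chr7:143203458-143296549 on the minus strand, within the span of Kcnq1, which lies on the plus strand (ENSMUSG00000101609). In EpiLC its 3 libraries had 15.9, 10.9 and 7.54 FPKM in chromatin, 0.682, 0.804 and 0.845 in nucleoplasm and 0.157, 0.169 and 0.210 in cytoplasm. In nESC they had 12.2, 11.8 and 15.3 in chromatin, 0.406, 0.443 and 0.455 in nucleoplasm and 0.0664, 0.0497 and 0.0582 in cytoplasm. No chromatin library overlapped one of the other fractions in either state. The ratio of chromatin to cytoplasm means was 63.9 in EpiLC and 225 in nESC. Even the lowest value, in an nESC cytoplasm library, rested on about 71 fragments because the exon is so long. On the log2(FPKM + 0.5) scale the difference was 4.08 in EpiLC (SE 0.20, limma adjusted p = 1.32e-09) and 4.60 in nESC (SE 0.12, limma adjusted p = 1.54e-12), which understates the ratio because cytoplasm lies under the pseudocount. Chromatin was also higher than nucleoplasm, by 3.17 in EpiLC (limma adjusted p = 4.33e-08) and 3.85 in nESC (limma adjusted p = 9.04e-11). Nucleoplasm over cytoplasm stayed short of the 2-fold threshold at 0.91 in EpiLC and 0.74 in nESC, and passed it with a pseudocount of 0.1 (1.65 in EpiLC and 1.76 in nESC).

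Correcting the libraries for GC content and exonic length, an alternative chosen after seeing the data, turned the Kcnq1ot1 chromatin difference to -0.67 in EpiLC and -1.16 in nESC. Kcnq1ot1 has the 3rd longest exonic length of the genes tested in both states, where the median is 4243 bases and 6 genes exceed 40000, so the correction rests on few genes at that length. It also turned nucleoplasm over cytoplasm to -2.20 in EpiLC (limma adjusted p = 1.01e-07) and -2.40 in nESC (limma adjusted p = 1.92e-09). Chromatin over nucleoplasm kept its direction and its call under the correction, at 1.54 in EpiLC and 1.24 in nESC.

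In total RNA Kcnq1ot1 had 3.23, 3.41 and 3.47 FPKM in EpiLC, against 0.914, 0.977 and 1.04 in nESC. The EpiLC libraries all lay above those of nESC, with a ratio of means of 3.45. In chromatin the libraries of the states overlapped, with 11.5 ± 4.21 FPKM in EpiLC and 13.1 ± 1.93 FPKM in nESC (SD, n = 3 each). In bulk samples fewer cells that make an RNA and less of it per cell cannot be told apart.

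The genes around Kcnq1ot1 did not move in 1 direction between the states in total RNA. Kcnq1, the potassium channel gene that Kcnq1ot1 overlaps, averaged 0.0998 ± 0.0968 FPKM in EpiLC and 0.0177 ± 0.0144 in nESC (SD, n = 3 each). These values lie near 0 and give no direction. The cell cycle inhibitor gene Cdkn1c averaged 9.77 ± 0.831 FPKM in EpiLC and 2.80 ± 0.204 in nESC (SD, n = 3 each), and Ascl2, a transcription factor gene needed in the placenta, averaged 2.04 in EpiLC and 0.332 in nESC. Phlda2, which restrains placental growth, had 14.6 ± 2.17 in EpiLC and 32.2 ± 3.26 in nESC, Slc22a18 had 0.859 in EpiLC and 3.74 in nESC, and Cd81, a tetraspanin gene, had 103 in EpiLC and 241 in nESC.

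Nespas, the antisense RNA of the Gnas cluster, shared the chromatin pattern, less steeply in EpiLC. Its gene spans chr2:174281237-174295436 on the minus strand (ENSMUSG00000086537) with 5 exon blocks. In EpiLC the libraries had 55.4, 65.4 and 49.4 FPKM in chromatin, 10.9, 10.2 and 10.1 in nucleoplasm and 7.37, 7.85 and 8.16 in cytoplasm. In nESC they had 73.2, 48.7 and 46.4 in chromatin, 4.89, 4.95 and 4.45 in nucleoplasm and 2.31, 1.66 and 2.27 in cytoplasm. The fractions did not overlap within a state. Chromatin libraries of the 2 states overlapped, whereas every EpiLC library of nucleoplasm and cytoplasm lay above every nESC library. The log2 difference of chromatin from cytoplasm was 2.78 in EpiLC (SE 0.10, limma adjusted p = 1.74e-10) and 4.44 in nESC (SE 0.16, limma adjusted p = 1.62e-11). Chromatin over nucleoplasm was 2.39 in EpiLC and 3.40 in nESC, both called. Nucleoplasm over cytoplasm was 0.39 in EpiLC, which is not called, and 1.04 in nESC (limma adjusted p = 4.87e-05). That nESC call rests at the threshold, at 0.92 without the nESC cytoplasm library numbered 2 and 0.81 with libraries centred on their median. In total RNA Nespas had 14.2, 15.6 and 14.4 FPKM in EpiLC and 9.12, 9.42 and 8.47 in nESC.

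Nespas and Gnas overlap on opposite strands over 11117 bases, and 988 bases are exon in both, which is 31.4% of the Nespas exons and 8.83% of the Gnas exons. The library kit marks strand, but the use of strand in counting is not given in the sources used here, so reads of that stretch may have been assigned to either gene. The same holds for Kcnq1ot1, whose whole exon lies inside Kcnq1 on the other strand and shares 121 bases with its exons, and for Airn where it crosses Igf2r, since counting without strand may add intron reads of the partner gene.

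Airn was below 1 FPKM in all 24 libraries and listed at 0 in some. The RNA is transcribed across the Igf2r start, chr17:12741311-12860136 on the plus strand (ENSMUSG00000078247), and its annotated exons cover 3597 of 118826 bases, so unspliced Airn is counted only over that part. EpiLC chromatin had 0.160, 0.109 and 0.0912 FPKM and nESC chromatin had 0.140, 0.751 and 0.117. Total RNA had 0.267, 0.234 and 0.213 in EpiLC, against 0.0882, 0.0295 and 0 in nESC. These total values rest on about 32, 27 and 32 fragments in EpiLC and 11, 4 and 0 in nESC. The highest value, 0.751 in 1 nESC chromatin library, corresponds to about 44 fragments, while the other chromatin libraries rest on 8 or 9. Its mean over 12 libraries was 0.124 FPKM in EpiLC and 0.132 in nESC, below the 1 FPKM needed to enter a test in either state. Igf2r shares 28354 bases of genomic span with Airn and no exon bases.

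H19 had above 1 FPKM in 3 libraries, none of them a whole group. It lies at chr7:142575529-142578143 on the minus strand (ENSMUSG00000000031). Total RNA of EpiLC had 0.890, 14.8 and 15.2 FPKM and that of nESC had 0 in all 3 libraries. In nucleoplasm EpiLC had 0.0406, 0.0446 and 0.0480, and nESC had 0, 10.5 and 0. Cytoplasm had 0.716, 0.597 and 0.567 in EpiLC, against 0.110, 0 and 0 in nESC, and chromatin had 0.333, 0.389 and 0.0730 in EpiLC, against 0.107, 0 and 0 in nESC. The 3 high libraries hold about 1152 to 1576 fragments of H19, and 0 in nESC total RNA allows at most 0.0311 to 0.0343 FPKM by counting 3 fragments (counting error only). H19 entered the EpiLC tests only through the total libraries numbered 2 and 3 and did not enter those of nESC. The 3 EpiLC cytoplasm libraries all lay above the 3 EpiLC nucleoplasm libraries. No test of H19 is given, since it passed the filter only through libraries outside the fractions compared.

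The same libraries stood out for other genes, found after the H19 values had been seen. The rule asked for at least 1 FPKM and at least 5 times the remaining libraries of the same group. It was applied to EpiLC total 2 and 3 and to nESC nucleoplasm 2, and 9 genes had this pattern, H19 included. They were Igf2, the growth factor gene next to H19, the globin genes Hbb-y, Hbb-bh1, Hba-x and Hba-a1, and the heart muscle genes Myh7, Myl3 and Actc1. Igf2 had 0.319, 7.92 and 7.15 FPKM in EpiLC total RNA and 0, 5.49 and 0 in nESC nucleoplasm. Hbb-y, an embryonic globin, had 0, 3.78 and 3.97 in EpiLC total RNA and 0, 2.61 and 0 in nESC nucleoplasm. The summed level of 8 globin genes was 8.73 to 13.2 FPKM in the 3 libraries and at most 1.05 in the other 21. That list was chosen after seeing the data and includes the globin genes picked by the rule. Its excess within the groups of the 3 libraries therefore follows from the rule and is no separate support. A list of 18 heart muscle genes summed to 65.3, 66.1 and 64.7 FPKM in the same 3 libraries. The rest of their groups had 17.6, 30.8 and 31.2, but the nESC cytoplasm libraries had 65.9, 60.8 and 59.1. That sum therefore set the 3 libraries apart only within their groups, and it too holds genes picked by the rule. Some heart genes were highest elsewhere, such as Ttn at 24.1 FPKM in nESC chromatin 3. The 3 libraries with high H19 cross state, fraction and replicate number. The part of other material in the H19 values was not tested. Lyz2, a macrophage gene, and Col1a1, a fibroblast collagen gene, had 30.8 and 2.23 FPKM in nESC total 3, where H19 was listed at 0. Lyz2 had 0.0579 FPKM in EpiLC total 2, 0.022 in EpiLC total 3 and 0 in nESC nucleoplasm 2, where H19 was high. Col1a1 had 0.0549, 0.300 and 0.394 FPKM in the EpiLC total libraries 1 to 3 and 0.0130, 0.220 and 0.0600 in the nESC nucleoplasm libraries 1 to 3. The collagen gene Col3a1 had 0.337, 0.621 and 0.870 in the same EpiLC libraries and 0.00465, 0.662 and 0.0408 in the same nESC libraries. Both collagen genes were thus higher in the libraries with high H19 than in the others of their groups. Of the other listed fibroblast genes Col1a2 followed them in both groups. Thy1 and Lum followed in neither, Dcn only in EpiLC and Twist1 only in nESC. Dcn had 4.73, 5.84 and 5.28 FPKM in the EpiLC total libraries and 0.0321, 0.0265 and 0 in the nESC nucleoplasm libraries. Twist1 had 2.03, 1.83 and 1.68 in the EpiLC total libraries and 0.272, 0.509 and 0.322 in the nESC nucleoplasm libraries. Thy1 had 7.51, 6.63 and 7.82 FPKM in the EpiLC total libraries and 0.483, 0.642 and 0.961 in the nESC nucleoplasm libraries. The 7 listed fibroblast genes summed to 14.8, 15.8 and 16.6 FPKM in those EpiLC libraries and to 0.839, 2.3 and 1.44 in those of nESC.

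**Figure D2:**
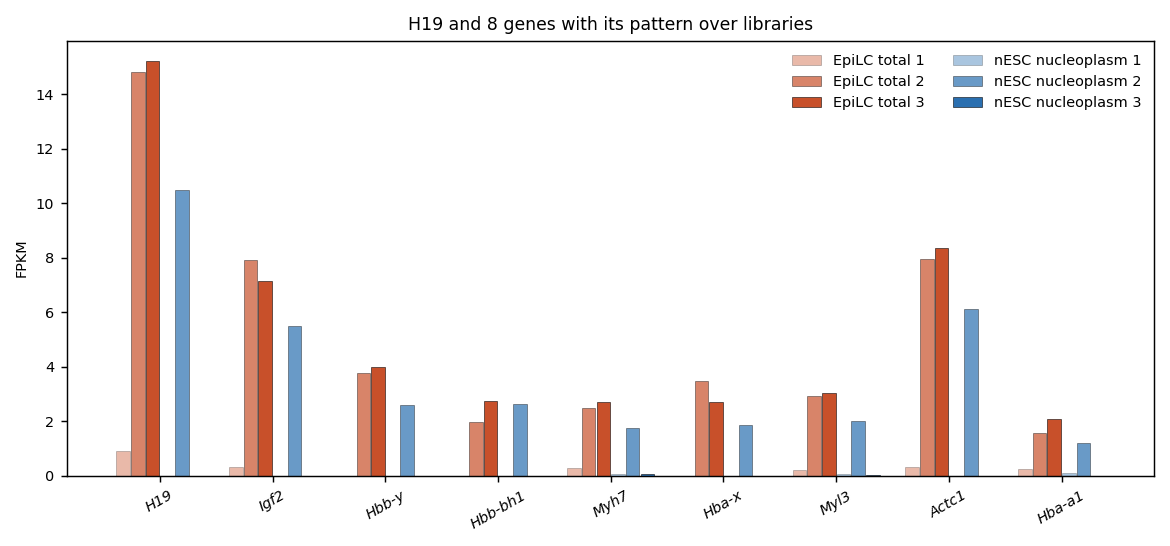
FPKM (linear axis) of H19 and 8 genes with its pattern in the 3 EpiLC total libraries and the 3 nESC nucleoplasm libraries, 1 bar per library. All 9 genes are high in EpiLC total 2 and 3 and in nESC nucleoplasm 2, which the rule that picked them required. H19 reaches 14.8, 15.2 and 10.5 FPKM in these libraries.

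Gnas, which encodes the stimulatory G protein alpha subunit, had its highest FPKM in cytoplasm in both states. It spans chr2:174284320-174346744 on the plus strand (ENSMUSG00000027523), with several alternative first exons summed in 1 value. EpiLC libraries had 24.2, 22.7 and 20.3 FPKM in chromatin, 36.3, 32.0 and 36.7 in nucleoplasm and 113, 96.4 and 95.4 in cytoplasm. Those of nESC had 12.7, 11.9 and 11.2 in chromatin, 12.4, 14.1 and 11.0 in nucleoplasm and 45.3, 52.3 and 49.5 in cytoplasm. Cytoplasm lay above both nuclear fractions in every library of a state, and each EpiLC fraction lay above the same fraction of nESC. Chromatin over cytoplasm was -2.16 in EpiLC (SE 0.10, limma adjusted p = 8.52e-10) and -1.99 in nESC (SE 0.10, limma adjusted p = 5.66e-10). Nucleoplasm over cytoplasm was -1.52 in EpiLC and -1.93 in nESC, both called. Scaling each library to 1 sum ended these 4 calls, with chromatin at -0.34 and nucleoplasm at -0.50 in EpiLC, and chromatin at -0.06 and nucleoplasm at -0.69 in nESC. In total RNA Gnas had 41.7 ± 2.53 FPKM in EpiLC and 18.4 ± 1.53 in nESC (SD, n = 3 each).

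Igf2r, which encodes the receptor that clears Igf2 and carries lysosomal enzymes, had its highest FPKM in nucleoplasm. It spans chr17:12682406-12769664 on the minus strand (ENSMUSG00000023830). Nucleoplasm had 81.3, 82.8 and 76.7 FPKM in EpiLC and 86.5, 86.3 and 87.4 in nESC. Chromatin had 26.2, 30.9 and 53.9 in EpiLC and 46.3, 48.5 and 28.8 in nESC, and cytoplasm had 12.1, 12.8 and 16.7 in EpiLC and 8.87, 9.19 and 8.94 in nESC. The 3 fractions kept this order in every library of both states, although chromatin varied most, with 1 library apart in each state. Nucleoplasm over cytoplasm was 2.50 in EpiLC (SE 0.21, limma adjusted p = 3.82e-07) and 3.20 in nESC (SE 0.15, limma adjusted p = 9.17e-10). Chromatin over cytoplasm was 1.33 in EpiLC and 2.10 in nESC, both called, and 0.94 in EpiLC after the length and GC correction. Chromatin over nucleoplasm was -1.18 in EpiLC (limma adjusted p = 0.000285) and -1.10 in nESC (limma adjusted p = 2.03e-05). These calls ended without EpiLC chromatin 1 (-0.97), without nESC chromatin 3 (-0.86), and under scaling to 1 sum (-0.38 in EpiLC and -0.40 in nESC). Total RNA had 22.6 ± 1.01 FPKM in EpiLC and 22.6 ± 1.42 in nESC (SD, n = 3 each). Slc22a3, an organic cation transporter gene that Airn silences in the placenta, averaged 0.439 FPKM in EpiLC total RNA and was listed at 0 in nESC.

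Zfp57 stood lower in EpiLC in every kind of RNA, and its excess in chromatin over cytoplasm was smaller there. The gene spans chr17:37001163-37010635 on the plus strand (ENSMUSG00000036036). EpiLC libraries had 56.8, 60.6 and 47.5 FPKM in chromatin, 47.3, 47.0 and 34.2 in nucleoplasm and 39.1, 38.4 and 31.6 in cytoplasm. Those of nESC had 510, 509 and 532 in chromatin, 245, 260 and 261 in nucleoplasm and 92.9, 93.7 and 94.3 in cytoplasm. In nESC the fractions were far apart, and in EpiLC the libraries of nucleoplasm and cytoplasm overlapped. Total RNA had 26.9 ± 0.666 FPKM in EpiLC and 173 ± 0.482 in nESC (SD, n = 3 each). The nESC mean was 6.45 times that of EpiLC in total RNA, 9.40 times in chromatin, 5.97 times in nucleoplasm and 2.57 times in cytoplasm. Within nESC chromatin over cytoplasm was 2.46 (SE 0.05, limma adjusted p = 4.55e-13), against 0.59 in EpiLC (SE 0.14, limma adjusted p = 0.00148), which misses the 2-fold threshold. Nucleoplasm over cytoplasm was 0.22 in EpiLC and 1.44 in nESC, where it was called. Chromatin over nucleoplasm was 1.01 in nESC and fell under the threshold at 0.98 without the nucleoplasm library numbered 1, at 0.99 without the chromatin library numbered 3 and at 0.98 with libraries centred on their median. Scaling to 1 sum, which raised the median of all genes, brought the EpiLC values past the threshold, to 2.41 for chromatin over cytoplasm, 1.24 for nucleoplasm over cytoplasm and 1.17 for chromatin over nucleoplasm.

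Trim28 was by far the most abundant of the 8 genes per length and was called in no comparison of the deposited values. It spans chr7:12999114-13031035 on the plus strand (ENSMUSG00000005566). Chromatin had 932, 1007 and 781 FPKM in EpiLC and 1314, 1089 and 1005 in nESC, and nucleoplasm had 1220, 1159 and 1150 in EpiLC and 876, 858 and 885 in nESC. Cytoplasm had 946, 1018 and 871 in EpiLC and 1069, 1066 and 1150 in nESC, and total RNA had 816, 856 and 885 in EpiLC and 604, 671 and 664 in nESC. Chromatin and cytoplasm overlapped in both states. Chromatin over cytoplasm was -0.06 in EpiLC (SE 0.11, limma adjusted p = 0.591) and 0.05 in nESC (SE 0.09, limma adjusted p = 0.648). Scaling to 1 sum gave 1.77 in EpiLC and 2.02 in nESC, where the median of all genes was 1.69 in EpiLC and 1.85 in nESC. The other pairs differed as deposited, with opposite signs in the states and folds under 2. Nucleoplasm over cytoplasm was 0.32 in EpiLC (limma adjusted p = 0.0194) and -0.32 in nESC (limma adjusted p = 0.00555). Chromatin over nucleoplasm was -0.38 in EpiLC (limma adjusted p = 0.00782) and 0.37 in nESC (limma adjusted p = 0.00255).

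**Figure D3:**
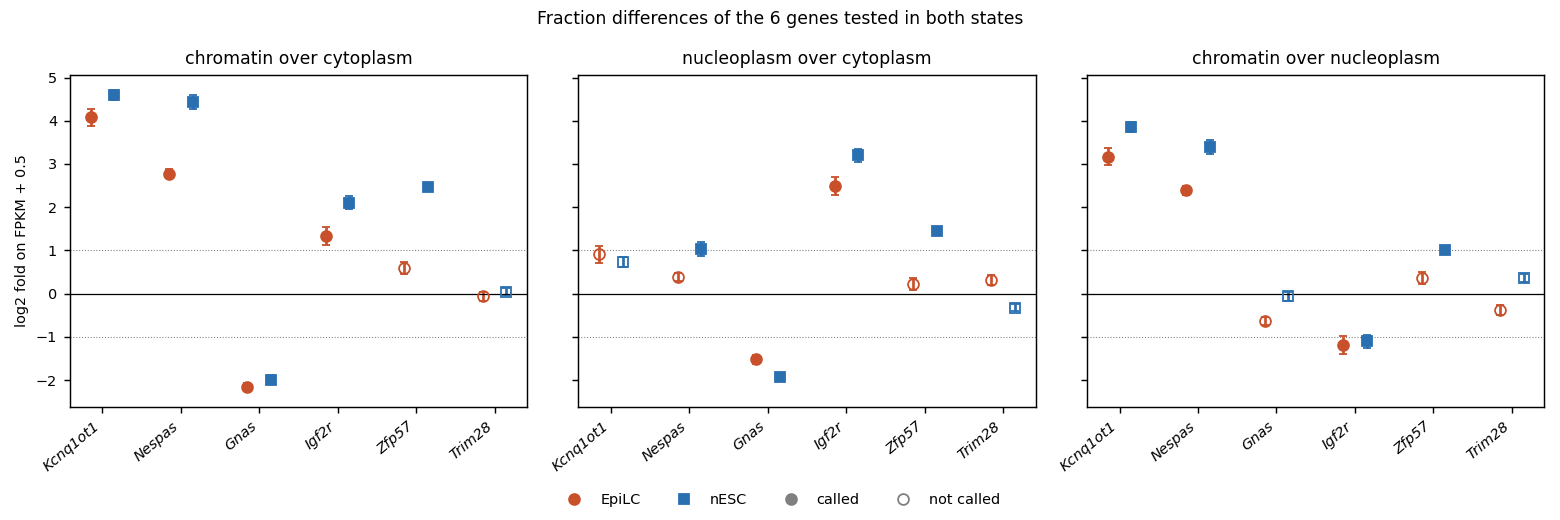
Log2 fold on FPKM + 0.5 for 3 pairs of fractions, with EpiLC left of nESC, SE bars from limma, filled symbols for called genes and dotted lines at 2-fold, for the 6 genes tested in both states. Kcnq1ot1 and Nespas lie highest for chromatin over cytoplasm, Gnas lies lowest at -2.16 and -1.99, and Igf2r is highest for nucleoplasm over cytoplasm.

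Calls needed a fold of 2 or more together with an adjusted p below 0.05. For chromatin over cytoplasm in EpiLC, 3 of the 7 members that entered the test were called higher and 1 was called lower, where the share over all genes was 29.1% higher and 28.4% lower. The 7 in EpiLC include H19, which passed the filter only through total libraries, so its lack of a call says nothing of its fractions. In nESC 4 of 6 were called higher and 1 lower, against 31.8% and 29.7% of all genes. For nucleoplasm over cytoplasm EpiLC had 1 higher and 1 lower, against 20.1% and 19.1%, and nESC had 3 higher and 1 lower, against 20.5% and 19.5%. For chromatin over nucleoplasm EpiLC had 2 higher and 1 lower, against 16.0% and 16.7%, and nESC had 3 higher and 1 lower, against 17.4% and 17.3%.

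The difference between states in chromatin over cytoplasm was tested as an interaction, since it compares fractions within each table. It was called negative, that is lower in EpiLC, for 2 of the 7 members tested, Zfp57 and Nespas, and positive for 0, where 6.47% of all genes were called higher and 5.24% lower. The 7 again include H19, whose result is not read for the reason given above. Zfp57 had -1.80 (SE 0.17, limma adjusted p = 2.19e-05) and Nespas -1.59 (SE 0.25, limma adjusted p = 0.000718), EpiLC minus nESC. Kcnq1ot1 had -0.45 (SE 0.30, limma adjusted p = 0.292) and Igf2r -0.70 (limma adjusted p = 0.171). The Kcnq1ot1 value depends on the pseudocount, because its cytoplasm levels lie under 0.5 FPKM, and it was -0.99 with a pseudocount of 0.1 (limma adjusted p = 0.0619) and 0.19 after the length and GC correction (limma adjusted p = 0.578). A difference of Kcnq1ot1 between the states was therefore neither called nor shown to be absent. Igf2r passed at -1.02 (limma adjusted p = 0.0169) when EpiLC chromatin 3, at 53.9 FPKM, was left out. Gnas had -0.10 and Trim28 -0.04, neither called.

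**Figure D4:**
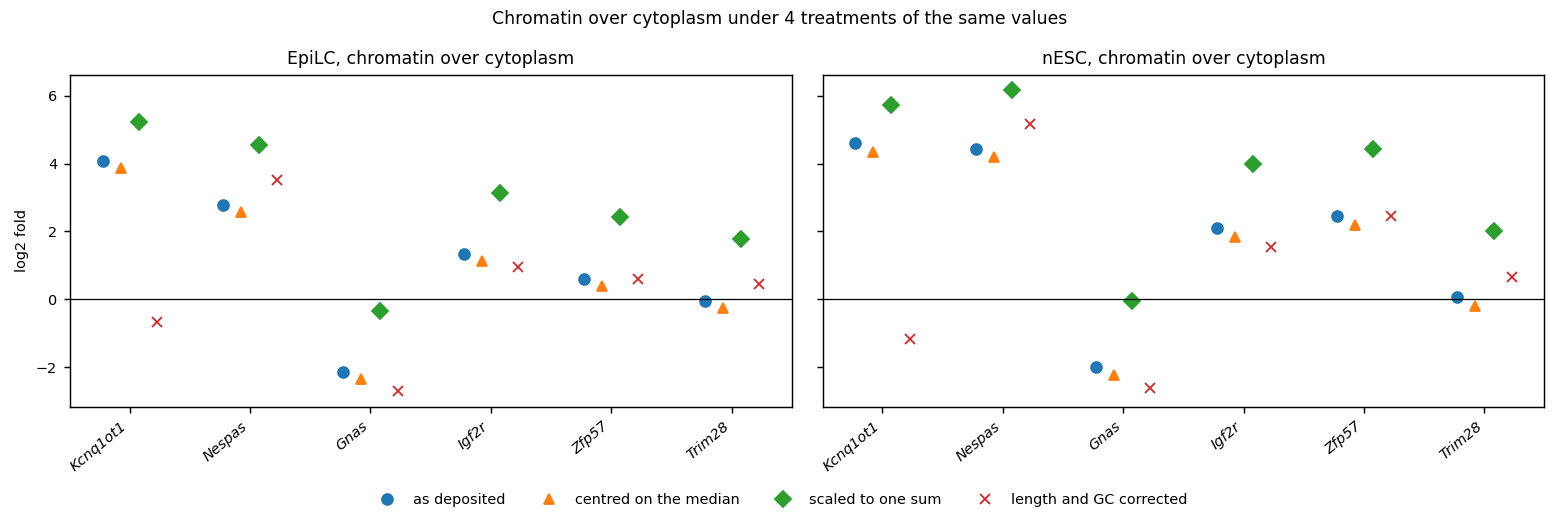
Log2 difference of chromatin from cytoplasm under 4 treatments of the same FPKM values, EpiLC at left and nESC at right, 1 symbol per treatment. Kcnq1ot1 changes sign only under the length and GC correction (-0.67 and -1.16), whereas scaling to 1 sum lifts all 6 genes.

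Scaling each library to 1 sum shifted all genes, because FPKM sums were largest in cytoplasm. The median of all genes for chromatin over cytoplasm moved to 1.69 in EpiLC and 1.85 in nESC. Called genes were then 8396 higher and 662 lower in EpiLC, against 3737 and 3649 as deposited, and 8416 and 751 in nESC, against 4003 and 3742. For nucleoplasm over cytoplasm the calls were 5135 higher and 220 lower in EpiLC, against 2579 and 2456, and 6159 and 129 in nESC, against 2577 and 2451. Centring on the median gave 2196 and 3266 in EpiLC and 2064 and 3369 in nESC for that pair. For chromatin over nucleoplasm scaling gave 4819 and 502 in EpiLC, against 2058 and 2141, and 4862 and 921 in nESC, against 2195 and 2179. For the difference between states it gave 765 and 1107, against 888 and 719. Nespas and Kcnq1ot1 stayed above the median of all genes under that scaling, with Nespas at 4.55 in EpiLC and 6.18 in nESC and Kcnq1ot1 at 5.24 in EpiLC and 5.74 in nESC.

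Of 50 listed genes, which are imprinted genes and neighbours in their clusters, 33 were tested. For chromatin over cytoplasm 8 were called higher and 10 lower in EpiLC (median -0.08) and 10 higher and 11 lower in nESC (median 0.00). The medians of all genes were 0.00 in EpiLC and 0.04 in nESC. Of all genes 29.1% were called higher and 28.4% lower in EpiLC, and 31.8% and 29.7% in nESC, so these counts lie near the background. Under scaling to 1 sum 20 were called higher and 2 lower in EpiLC and 22 higher and 2 lower in nESC. The neural gene Nnat averaged 16.7 FPKM in nESC chromatin and 0.438 in cytoplasm, and Commd1, which takes part in copper handling, averaged 24.9 in EpiLC chromatin and 238 in cytoplasm. The other imprinted noncoding RNAs that could be tested, Meg3, Rian and Mirg of the Dlk1 cluster, were all called higher in chromatin than in cytoplasm in both states. Mirg had 2.86 in EpiLC and 4.12 in nESC, and Rian had 2.53 in EpiLC and 2.20 in nESC. The difference between states was called for Mirg (-1.19) and Meg3 (-1.07).

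Among 24 genes that keep imprints or act with Trim28, 11 were called higher in chromatin than in cytoplasm and 7 lower in EpiLC, beside 29.1% and 28.4% of all genes. In nESC 11 were called higher and 4 lower, beside 31.8% and 29.7% of all genes. Their median was 0.64 in EpiLC and 0.79 in nESC, beside medians of all genes of 0.00 and 0.04. Under scaling to 1 sum 17 were called higher and 0 lower in EpiLC, beside 8396 and 662 of 12834 genes, and 20 higher and 1 lower in nESC, beside 8416 and 751 of 12592. The chromatin remodeller Atrx had 210 FPKM in EpiLC chromatin and 13.9 in cytoplasm, and Resf1, a cofactor of the histone methyltransferase Setdb1, had 116 in EpiLC chromatin and 5.22 in cytoplasm. In total RNA Zfp445, a zinc finger gene that shares the task of Zfp57, averaged 78.2 ± 0.647 FPKM in EpiLC and 61.1 ± 0.250 in nESC (SD, n = 3 each). The methyltransferase gene Dnmt1 averaged 87.1 ± 2.72 in EpiLC and 89.6 ± 2.70 in nESC, and its partner Uhrf1 averaged 181 ± 4.29 in EpiLC and 256 ± 1.21 in nESC. Dppa3, which protects imprints in the early embryo, averaged 1.01 ± 0.296 in EpiLC and 42.9 ± 0.729 in nESC.

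Over the 24 libraries, with each table centred on its own mean, the closest genes by Pearson's r of log2 values among 10568 genes were named as a description. Kcnq1ot1 ran closest to Gpr21 (0.994), Zfp202 and Dbhos (0.992 each), and Nespas to Khdc4 (0.989), Casp2 and Sox2ot (0.985 each). Gnas was closest to Hist2h3c2 and Nelfe (0.989 each), Igf2r to Glg1 (0.989) and Ptprk (0.987), Zfp57 to Pask (0.963) and Trim28 to Nol6 (0.918). Among the genes themselves Kcnq1ot1 and Nespas had 0.96, Nespas and Zfp57 0.81, and Gnas and Igf2r -0.79. The points share 4 kinds of RNA and come from 2 separately normalized tables.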

How the data were processed

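RNA of 3 fractions and of whole cells was measured in 24 libraries of E14 cells, grouped by the labels into 8 groups of 3. The authors deposited FPKM values for each gene. The submitters' processing notes name TopHat2, Cuffnorm and the builds mm10 and GRCm38. The sources used here do not give their versions, the annotation, the library normalization or whether counting used strand. All per-sample columns were used. A symbol was matched to 29586 of the 29759 Ensembl IDs through GENCODE M21, which also gave coordinates.

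Fractions were compared within a state with limma 3.58.1 in R 4.3.3 (linear fit with trended empirical Bayes moderation, two-sided tests) on log2(FPKM + 0.5), for genes averaging 1 FPKM or more across a table's 12 libraries, with 4 groups fitted together. P-values were adjusted by Benjamini-Hochberg over all 12834 genes tested in EpiLC, 12592 in nESC and 13722 in the interaction. The interaction used 12 chromatin and cytoplasm libraries centred on their medians. The fit was tested on simulated data. Named genes were all 8 members, the closest genes by Pearson's r, and examples out of up to 4 called genes per list by absolute fold, with neighbours of the clusters and some keepers added after their values were seen. The members and lists were chosen with earlier results of these data known.

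Depth was read from steps between low FPKM values of 1276 genes, of which 89.7% to 96.3% per library lay within 10% of a whole multiple. The count test was not run on FPKM. As alternatives the pseudocount was set to 0.1 or 1, the filter was dropped or raised to 5 FPKM, libraries were centred, scaled to 1 sum or left uncentred in the interaction, the trend was dropped, the fit was limited to the fractions compared, the replicate number was used as a block, and libraries were left out in turn. A spline correction for GC content and exonic length (5 degrees of freedom) and leaving out the EpiLC chromatin and cytoplasm libraries numbered 3 were chosen after seeing the data. The labels do not say whether same-numbered libraries came from 1 culture, and the main fits left them unpaired.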

Additional observations from a re-analysis of the deposited data

Results flagged for a closer look

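The excess of chromatin over cytoplasm differed between the states for 2 of the genes by the interaction test. For Zfp57 the difference was -1.80 on the log2 scale (EpiLC minus nESC), with 0.59 in EpiLC and 2.46 in nESC, and it ranged from -1.92 to -1.72 when single libraries were left out. For Nespas it was -1.59, with 2.78 in EpiLC and 4.44 in nESC, and it ranged from -1.71 to -1.39. Both kept their call in each of these fits. Zfp57 chromatin was lower in EpiLC (55.0 FPKM) than in nESC (517 FPKM), while Nespas chromatin overlapped between the states and its cytoplasm level was higher in EpiLC (7.79 FPKM) than in nESC (2.08 FPKM). The cause was not tested.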

How the results depend on the processing

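Leaving out each library in turn gave 7240 to 7581 called genes for chromatin over cytoplasm in EpiLC and 7654 to 7787 in nESC, 4768 to 5436 in EpiLC and 4891 to 5160 in nESC for nucleoplasm over cytoplasm, 4054 to 4554 in EpiLC and 4365 to 4418 in nESC for chromatin over nucleoplasm, and 1468 to 1775 for the difference between states. The length and GC correction lowered the calls for nucleoplasm over cytoplasm to 3285 in EpiLC and 3335 in nESC, and a mean of at least 5 FPKM, which tests fewer genes, lowered those of the difference between states to 947. The same correction reversed Kcnq1ot1 for chromatin over cytoplasm (-0.67 in EpiLC, -1.16 in nESC) and nucleoplasm over cytoplasm (-2.20 in EpiLC, -2.40 in nESC), and scaling to 1 sum gave 1.77 for Trim28 chromatin over cytoplasm in EpiLC, where the deposited -0.06 was not called and the median of all genes moved to 1.69. Level differences of the states in total RNA, EpiLC minus nESC in log2, also changed under scaling to 1 sum. Kcnq1ot1 went from 1.39 to 1.59, Nespas from 0.68 to 0.90 and Gnas from 1.16 to 1.38. Igf2r went from 0.00 to 0.22, Zfp57 from -2.67 to -2.45 and Trim28 from 0.40 to 0.62. The median of all genes moved the same way, from 0.019 to 0.223. Under centring Zfp57 was at -2.70, where that median was -0.017. The cause of the changed calls and reversals above was not tested. Same-numbered libraries shared little of their deviation from group means: of 18 correlations 2 were over 0.1 (range -0.219 to 0.177). This cannot tell whether same-numbered libraries came from 1 culture, which the labels do not give. With the replicate block 1516 genes were called for the difference between states, against 1607, and no call on the 8 genes changed. Few fragments limit Airn, and H19 outside its high libraries. Those high libraries also stood out for globin genes and some heart muscle genes. Strand use in counting limits Nespas, Gnas, Kcnq1ot1 and Airn.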

Other observations

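Macrophage genes were uneven among the nESC total libraries. Lyz2 had 0, 7.11 and 30.8 FPKM in the 3 libraries, and C1qa had 0, 0.962 and 3.84 FPKM. The summed level of 9 macrophage genes was 9.26, 18.5 and 54.8 FPKM there, but it was also 61.8, 60.2 and 56.0 FPKM in the nESC nucleoplasm libraries, where Cd68 alone had 61.6, 60.1 and 55.6 FPKM. Of the macrophage genes 1, 3 and 7 reached 1 FPKM in the nESC total libraries, against 1 in each of the other 21 libraries. The summed level of 7 fibroblast genes was 0.784, 3.71 and 9.70 FPKM in the nESC total libraries, and 9.41 to 28.7 FPKM in the EpiLC libraries. The lists were chosen after seeing the data. In these libraries Kcnq1ot1 had 0.914, 0.977 and 1.04 FPKM and Zfp57 had 174, 173 and 173 FPKM.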
